A study of Homo sapiens with 24 samples.

Results

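The 34 genes described here serve the defence against oxidants, iron storage and the supply of NADPH, and are known as genes of the NRF2, glutathione and thioredoxin systems. They were chosen by gene name, from a gene table of 60623 genes. The rule holds no measured value, but earlier results of these data were known when the genes were chosen. All 34 passed the filter on low counts that left 14059 genes for testing, and the lowest count of any of them was 21, for GSTA4 in 1 library. RNA was sequenced in 24 libraries of HT-29, an epithelial line from a human colon cancer, as single-end reads of poly(A)-selected RNA. The cells were wild-type (WT) or carried a knockout (KO) of GPRC5A, a membrane receptor of class C. Each genotype was kept for 8 h with DMSO at 0.1%, with 7-fluorotryptamine (7FTA, a tryptamine with a fluorine atom) at 50 µM, with the cytokine TNFα at 10 ng/mL, or with TNFα and 7FTA, which gave 8 groups of 3 libraries. A DMSO percentage is labelled for the groups without agent alone, and whether the KO cells were 1 clone is not labelled. Nor is it labelled whether the 3 libraries of a group were grown as separate cultures. The p-values therefore reflect only how much these libraries vary, which may be technical. Running numbers in the titles give each group 1 consecutive block of libraries, all blocks without TNFα coming first. What the numbers stand for is not labelled, and an effect of any such order and the differences between groups cannot be told apart.

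NRF2, the product of NFE2L2, is a transcription factor that the adaptor KEAP1 marks for degradation. Oxidants and electrophiles modify KEAP1, after which NRF2 builds up, pairs with a small MAF protein such as MAFG and binds antioxidant response elements. Its known targets make and recycle glutathione and thioredoxin, supply the NADPH that both systems consume, break down haem, store the iron that haem releases and detoxify quinones and other electrophiles. In the gut epithelium this programme is known for handling oxidants and compounds that arrive with food and bacterial products.

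The promoters of several members hold the core of the antioxidant response element, and 6 of them are shown as examples. Windows from 250 bases before to 50 bases after a start site were taken from RefSeq on GRCh38.p14, and 28 of the 34 members had at least 1 window. No window was matched for GSR, GSS, HMOX1, PRDX1, SLC7A11 and FTH1. The letters TGACNNNGC, searched on both strands, occurred in 12 of these 28 members (42.9%), in 16.1% of all genes with a window and in 19.7% of the tested genes. Of the 16 matches, 3 also hold TGACTCA, the AP-1 site, and 12 lie wholly before the start. In the sequences below the matching letters are in capitals, each read 5′ to 3′ along the strand of the gene, and GC at the left end of the capitals means that the match is on the other strand. The printed stretches are chr1:10398853-10398881 on the plus strand for PGD, chr1:93909446-93909474 on the minus strand for GCLM and chr6:83431170-83431198 on the minus strand for ME1. They are chr12:104215670-104215698 on the plus strand for TXNRD1, chr14:64942849-64942877 on the minus strand for GPX2 and chr19:10502784-10502812 on the minus strand for KEAP1.
PGD: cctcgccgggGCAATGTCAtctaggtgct
GCLM: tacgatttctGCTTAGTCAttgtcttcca
ME1: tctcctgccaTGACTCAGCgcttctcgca
TXNRD1: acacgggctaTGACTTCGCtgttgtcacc
GPX2: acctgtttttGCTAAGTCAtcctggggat
KEAP1: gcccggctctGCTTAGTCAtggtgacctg
The match of PGD begins 201 bases before the start, that of GCLM 34, of ME1 137, of TXNRD1 99, of GPX2 122 and of KEAP1 31. The ME1 match is the 1 among these 6 that contains TGACTCA. ME1, TXNRD1 and KEAP1 have over 1 match each, of which 1 is shown. A match is a description of the letters, and a window without one says only that these letters are not in it.

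Total counts ran from 16782857 to 27247407 per library, and the common biological coefficient of variation was 4.06%. GPRC5A fell in KO cells under all 4 treatments, from 207 ± 5.84 to 69.8 ± 2.26 CPM (counts scaled to the size of the library, with TMM factors; SD, n = 3) with DMSO, so RNA of the gene remained. CYP1A1, a known target of the aryl hydrocarbon receptor, rose with 7FTA from 0.161 ± 0.0494 to 11.2 ± 1.42 CPM in WT cells (SD, n = 3), and NFKBIA, a known target of NF-κB, rose with TNFα from 23.6 ± 0.875 to 142 ± 2.27 CPM (SD, n = 3). The 10 markers of colon epithelium, led by KRT8, summed to 18700 to 21300 CPM in WT libraries and to 16200 to 18200 CPM in KO libraries, without overlap, while CDX2 was as low as 0.621 CPM. Markers of leukocytes summed to 2.77 to 8.76 CPM, those of endothelium to 0.546 to 1.64 CPM and those of fibroblasts to 0.697 to 2.03 CPM.

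The members differ widely in level. Per kilobase of exon, in WT cells with DMSO, the ferritin light chain gene FTL was the highest at 3017 CPM per kb, followed by the heavy chain gene FTH1 at 1332 and by the peroxiredoxin gene PRDX1 at 464. NQO1 stood at 221, NFE2L2 at 19.3, HMOX1 at 5.37 and GSTA4, the lowest, at 1.09 CPM per kb. The length used holds all annotated exon bases of a gene, not those of 1 transcript, and the order depends on it. Without division by length, FTH1 stood at 2704 CPM and FTL at 2649 CPM in these cells. The median of the members' mean level over all libraries was 157 CPM, against 22.4 CPM for all tested genes, and 29 of the 34 lay above that second value. Highly expressed genes are counted more precisely, so this difference in level stands beside every share of members called in what follows. The members together took 1.26% ± 0.0081 of all counts in WT cells with DMSO, 1.39% ± 0.016 with 7FTA, 1.32% ± 0.021 with TNFα and 1.58% ± 0.049 with both (SD, n = 3). In KO cells the shares were 1.38% ± 0.01, 1.51% ± 0.017, 1.46% ± 0.036 and 1.67% ± 0.045 in the same order (SD, n = 3).

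**Figure D1:**
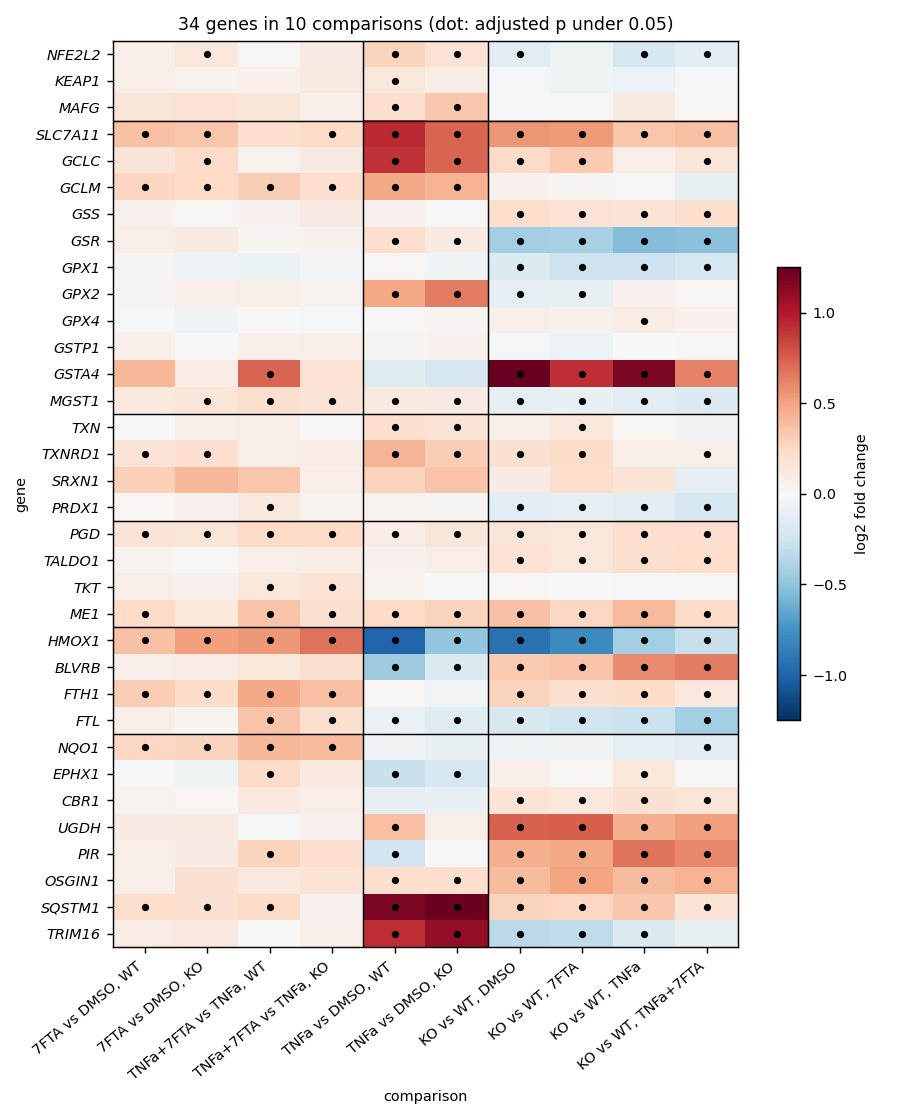
Log2 fold changes of the 34 genes (rows, grouped by role) in 10 comparisons (columns: the 4 with 7FTA, the 2 with TNFα, the 4 of KO against WT); red is higher, blue is lower, and a dot marks an adjusted p under 0.05. Every dot in the 4 columns of 7FTA is on a red cell, whereas the columns of TNFα and of KO against WT hold dots of both colours.

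7FTA raised members of every role and lowered none that passed the test. Against DMSO, 9 members rose and 0 fell in WT cells (26.5% of the members called, against 2.05% of all tested genes). In KO cells 11 rose and 0 fell (32.4% against 2.38%). On top of TNFα, 14 rose and 0 fell in WT cells (41.2% against 5.54%) and 10 rose and 0 fell in KO cells (29.4% against 7.52%). A gene was called when its p from edgeR's quasi-likelihood F test, adjusted over all 14059 genes, was under 0.05. The median log2 fold change of the members was 0.08, 0.11, 0.13 and 0.10 in these 4 comparisons, and that of all tested genes was -0.0023, -0.0002, 0.00015 and -0.0033.

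These 4 comparisons use different libraries on both sides. FTH1, GCLM, HMOX1, NQO1 and PGD rose in all 4, which is 14.7% of the members against 0.526% of all tested genes. Without WT 7FTA replicate 2 the count was 3, since HMOX1 and NQO1 were lost (adjusted p 0.184 and 0.0573). Leaving out each of 6 other libraries lost 1 of the 5, and these calls are given with the genes below. Another 13 members rose in some of the 4 comparisons, and 16 passed the test in none. At least 1 call was thus made for 52.9% of the members, against 11.1% of all tested genes. The only call of PIR, in WT cells with TNFα, was lost in 8 of 11 alternative runs, DESeq2 and no filter among them. The log2 fold change was above 0 in all 4 for 29 of the 34 members (85.3%), as for 15.2% of all tested genes. The mean of the 4 effects, tested in the same fit on all 24 libraries, rose for 29 members and fell for 0 (85.3% called, against 16.4% of all tested genes, of which 8.86% were higher and 7.58% lower). The 5 that did not pass were GSS, TXN, TRIM16, GPX1 and GPX4, and GPX1 and GPX4 had mean effects of -0.03 and -0.02. In bulk RNA a change in RNA per cell and a change in the share of cells that express a gene cannot be told apart.

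The genes of haem and iron had the largest mean effect and the best-resolved one. HMOX1 (chromosome 22, 35380361 to 35394214, plus strand, GRCh38, as for all gene positions here) encodes haem oxygenase 1, which splits haem and frees its iron. In WT cells the 3 libraries read 13.9, 11.3 and 13.5 CPM with DMSO and 16.6, 18.9 and 15.2 CPM with 7FTA. With TNFα they read 7.51, 5.26 and 6.98 CPM, and with both 9.91, 9.34 and 9.27 CPM. The groups with 7FTA lay above their controls without overlap. In KO cells the libraries read 6.44, 7.34 and 6.59 CPM with DMSO, 9.65, 9.86 and 9.49 with 7FTA, 4.59, 4.81 and 5.14 with TNFα, and 7.22, 7.63 and 8.52 with both, again without overlap. The mean effect was a log2 fold change of 0.52 ± 0.06 (SE; 1.44-fold; adjusted p = 3.08e-10), and the 4 single effects were 0.37, 0.51, 0.54 and 0.68. The smallest of them, in WT cells without TNFα (adjusted p = 0.0168), was lost when 7FTA replicate 1, 7FTA replicate 2 or DMSO replicate 2 was left out (adjusted p 0.0585, 0.184 and 0.174). The one in WT cells with TNFα (adjusted p = 0.00227) was lost without TNFα replicate 2 (adjusted p = 0.0760).

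FTH1 (chromosome 11, 61959718 to 61967660, minus strand) encodes the ferritin heavy chain, which oxidises iron for storage. Its WT libraries read 2687, 2692 and 2734 CPM with DMSO and 3347, 3419.6 and 3297 CPM with 7FTA, then 2734, 2683 and 2816 CPM with TNFα and 3749.8, 3839 and 3832 CPM with both. Its KO libraries read 3235, 3316 and 3312 CPM with DMSO, 3829, 3887 and 3824 with 7FTA, 3134, 3287 and 3216 with TNFα, and 4012, 4136 and 4339 with both. No library with 7FTA overlapped its controls. The mean effect was 0.35 ± 0.01 (SE; 1.27-fold; adjusted p = 2.82e-25), the smallest p among the members. BEST1, on the opposite strand, shares 62.4% of the FTH1 exon bases in GENCODE 29. It had 4.45 CPM on average, against at least 2683 CPM for FTH1 in every library. As the strand setting was not given, this does not show that reads in the shared bases were counted for FTH1. The level of FTH1 per kilobase and its ratio to FTL carry the same limit. Both ferritin genes have processed pseudogenes of nearly the same sequence, which could take or give reads.

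FTL (chromosome 19, 48965301 to 48966878, plus strand) encodes the ferritin light chain. In WT cells it read 2598, 2687 and 2662 CPM with DMSO, 2733, 2869 and 2779.7 with 7FTA, 2454, 2441 and 2597 with TNFα, and 3088, 3318 and 3186 with both. In KO cells it read 2229.9, 2359.6 and 2325 CPM with DMSO, 2338, 2426 and 2312 with 7FTA, 2015, 2153 and 2045 with TNFα, and 2216, 2443 and 2455 with both. The step with 7FTA passed the test in the cells with TNFα, with log2 fold changes of 0.36 ± 0.03 in WT and 0.20 ± 0.03 in KO cells (SE; adjusted p 3.24e-10 and 7.45e-05). Without TNFα they were 0.08 and 0.03 and did not pass (adjusted p 0.335 and 0.798). BLVRB, which encodes biliverdin reductase B, had a mean effect of 0.12 ± 0.03 (SE; adjusted p = 0.0073) and passed in none of the 4 single comparisons.

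**Figure D2:**
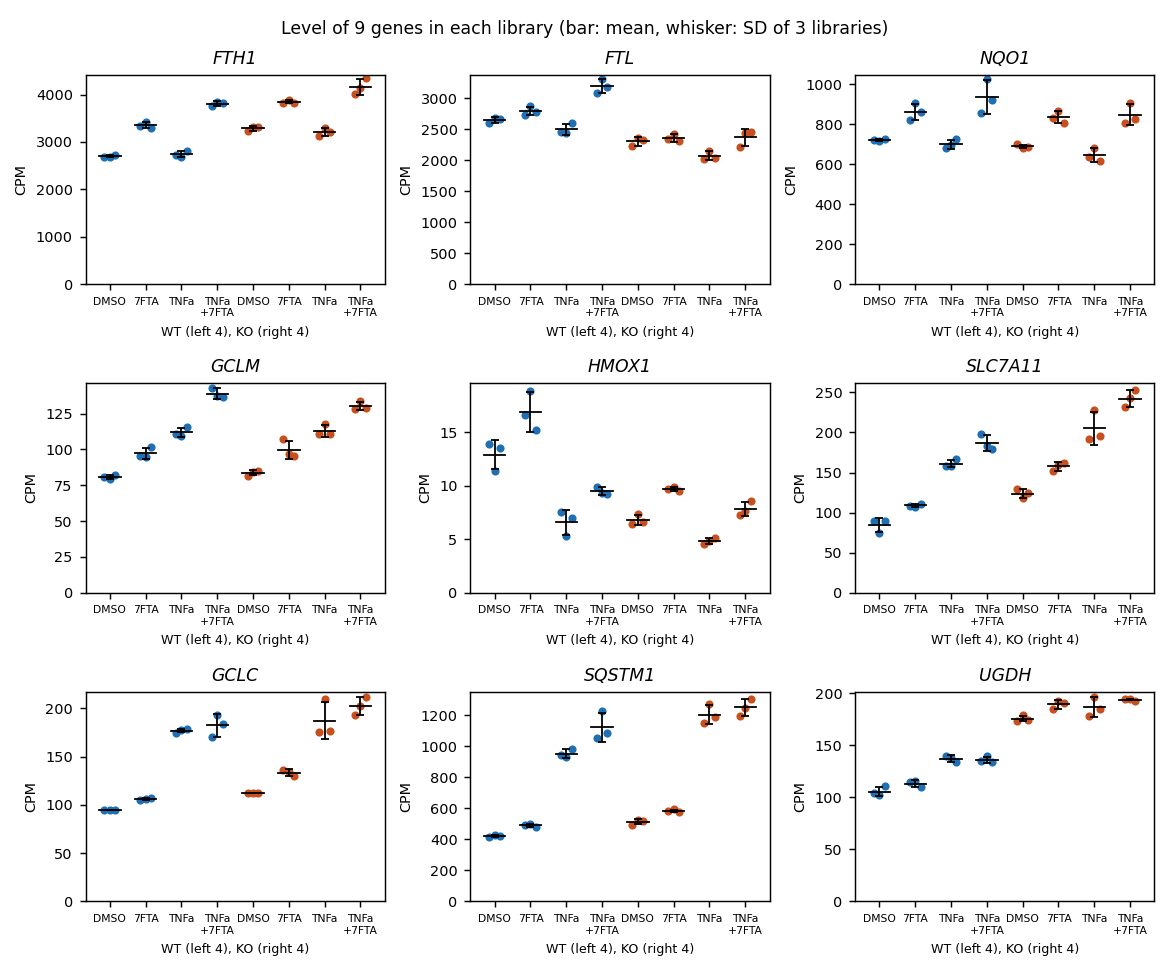
Level in CPM (vertical axes, from 0) of 9 genes in each of the 24 libraries, by treatment in WT cells (blue) and KO cells (orange); the bar is the mean and the whisker the SD of 3 libraries. FTH1, NQO1, GCLM and HMOX1 step up with 7FTA in all 4 pairs of groups, SQSTM1 and GCLC mainly with TNFα, and UGDH stands higher in KO cells.

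Among the glutathione genes, 8 of 11 had a raised mean effect of 7FTA. SLC7A11 (chromosome 4, 138164097 to 138242349, minus strand) encodes the cystine carrier that brings in the cysteine for glutathione. Its WT libraries read 89.5, 74.4 and 89.1 CPM with DMSO, 109, 107 and 111 with 7FTA, 159, 158 and 166 with TNFα, and 198, 183 and 179 with both. Its KO libraries read 129, 118 and 124 CPM with DMSO, 152, 159 and 162 with 7FTA, 191, 229 and 195 with TNFα, and 232, 243 and 253 with both. The groups with 7FTA lay above their controls in all 4 cases, and the mean effect was 0.29 ± 0.03 (SE; adjusted p = 1.85e-06). On top of TNFα it was 0.21 in WT cells (adjusted p = 0.0709) and 0.24 in KO cells (adjusted p = 0.0235). The latter was lost without KO TNFα replicate 1 or 3, or without KO TNFα with 7FTA replicate 2 or 3 (adjusted p 0.125, 0.106, 0.0612 and 0.119).

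Glutamate-cysteine ligase, the enzyme that sets the rate of glutathione synthesis, has a modifier subunit from GCLM and a catalytic subunit from GCLC. GCLM read 80.8, 79.2 and 82 CPM with DMSO and 95.5, 94.9 and 102 CPM with 7FTA in WT cells, and 81.6, 84.4 and 85 against 107, 96.6 and 95.7 CPM in KO cells. On top of TNFα it went from 111, 109 and 115 to 143, 137 and 136 CPM in WT cells and from 111, 118 and 111 to 128, 134 and 129 CPM in KO cells. GCLM therefore stood higher with 7FTA in every pair of groups, with a mean effect of 0.26 ± 0.02 (SE; adjusted p = 6.89e-14). GCLC went from 94.9, 94.3 and 94.7 to 105, 106 and 107 CPM in WT cells and from 112, 113 and 113 to 136, 134 and 129 CPM in KO cells, and passed only in the latter (0.24 ± 0.05, SE; adjusted p = 0.00176). With TNFα already present its groups overlapped, from 175, 178 and 178 to 170.0, 194 and 184 CPM in WT cells and from 176, 209 and 177 to 193, 202 and 212 CPM in KO cells. Its mean effect was 0.14 ± 0.02 (SE; adjusted p = 2.38e-05), and whether the catalytic and modifier subunits differed in response was not tested.

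Of the glutathione transferases, GSTA4, which acts on aldehydes from oxidised lipids, had the second largest mean effect at the lowest level of all members. It read 2.11, 2.69 and 2.32 CPM with DMSO, 3.18, 3.11 and 3.13 with 7FTA, 2.09, 2.90 and 1.27 with TNFα, and 2.58, 3.45 and 4.46 with both in WT cells. Its KO libraries read 5.92, 5.43 and 5.33 CPM with DMSO, 6.66, 5.71 and 5.50 with 7FTA, 4.68, 5.28 and 4.52 with TNFα, and 5.16, 5.80 and 5.38 with both. The mean effect was 0.36 ± 0.09 (SE; adjusted p = 0.00195), and of the 4 single effects that in WT cells with TNFα passed (0.73 ± 0.20, SE; adjusted p = 0.0184) although the groups overlapped. It was lost without WT TNFα replicate 1 or 3 or WT TNFα with 7FTA replicate 3 (adjusted p 0.0617, 0.226 and 0.213) and in the fit of the compared groups only (adjusted p = 0.102). MGST1, a microsomal glutathione transferase, had a mean effect of 0.16 ± 0.02 (SE; adjusted p = 1.7e-09). GSTP1, GSR (glutathione reductase) and GPX2 (a glutathione peroxidase of the gut epithelium) had mean effects from 0.05 to 0.07, which passed. GSS, glutathione synthetase, had 0.06 (adjusted p = 0.0766).

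In the thioredoxin system 3 of 4 members had a raised mean effect. TXNRD1, thioredoxin reductase 1, had 0.14 ± 0.02 (SE; adjusted p = 1.28e-08), with group means that went from 524 ± 6.22 to 590.4 ± 5.54 CPM in WT cells without TNFα (SD, n = 3). SRXN1 encodes sulfiredoxin, which restores over-oxidised peroxiredoxins. It had 0.28 ± 0.08 (SE; adjusted p = 0.00837) at levels of 4.9 to 9.49 CPM, with the widest interval but 1 among the 34 members. AL121758.1, on the same strand, shares 85% of the SRXN1 exon bases and had 0 CPM. How reads in shared bases were counted was not given, so this value does not show that the level of SRXN1 is unaffected. PRDX1 had 0.06 ± 0.02 (SE; adjusted p = 0.00305), and TXN, thioredoxin itself, had 0.04 (adjusted p = 0.131).

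All 4 genes of NADPH supply had a raised mean effect. PGD (chromosome 1, 10398592 to 10420144, plus strand) encodes the phosphogluconate dehydrogenase of the pentose phosphate pathway. In WT cells it went with 7FTA from 327, 335 and 338 to 367, 379 and 370.0 CPM, and on top of TNFα from 355, 346 and 364 to 400.4, 430.0 and 426 CPM. In KO cells it went from 354, 375 and 379 to 402, 424 and 403 CPM, and on top of TNFα from 399.8, 421 and 413 to 468, 498 and 489.9 CPM. No group with 7FTA overlapped its control, and the mean effect was 0.20 ± 0.02 (SE; 1.15-fold; adjusted p = 8.39e-13). The single effect in KO cells without TNFα (0.15 ± 0.03, SE; adjusted p = 0.00616) was lost without 7FTA replicate 2 or DMSO replicate 1 (adjusted p 0.0906 and 0.0884). ME1, the cytosolic malic enzyme, had 0.23 ± 0.02 (SE; adjusted p = 8.36e-13). TKT, transketolase, had 0.11 and TALDO1, transaldolase, had 0.05 (adjusted p 1.79e-06 and 0.0199), and the latter was lost without WT 7FTA replicate 2 (adjusted p = 0.0521).

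NQO1 (chromosome 16, 69706996 to 69726951, minus strand) encodes a quinone reductase that is often used as a readout of NRF2 activity. Its WT libraries read 720.3, 715 and 725 CPM with DMSO, 823, 904 and 859.8 with 7FTA, 679.6, 696 and 725 with TNFα, and 857, 1028 and 922 with both. Its KO libraries read 699, 680.3 and 688 CPM with DMSO, 833, 866 and 807 with 7FTA, 635, 683 and 618 with TNFα, and 809, 908 and 827 with both. The lowest library with 7FTA, at 807 CPM, lay above the highest one without it, at 725 CPM. The mean effect was 0.34 ± 0.03 (SE; 1.26-fold; adjusted p = 1.1e-08). The single effect in WT cells without TNFα (0.26 ± 0.05, SE; adjusted p = 0.0106) was lost without 7FTA replicate 2 or DMSO replicate 1 (adjusted p 0.0573 and 0.0522). CYP1A1, the target of the aryl hydrocarbon receptor, rose with 7FTA as well, and whether NQO1 rose through NRF2 was not tested. SQSTM1, which encodes the autophagy receptor p62 that binds KEAP1, had a mean effect of 0.17 ± 0.02 (SE; adjusted p = 1.91e-07). The other members of this role that passed were PIR, OSGIN1, EPHX1, CBR1 and UGDH, with mean effects from 0.06 to 0.17. That of CBR1, carbonyl reductase 1, was lost without KO 7FTA replicate 2, KO DMSO replicate 2, KO TNFα replicate 3, WT 7FTA replicate 2, WT DMSO replicate 3, WT TNFα replicate 2 or WT TNFα with 7FTA replicate 2 (adjusted p 0.0582 to 0.0894).

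All 3 regulators had a raised mean effect of 7FTA. NFE2L2 (chromosome 2, 177227595 to 177392697, minus strand) read 115, 112 and 119 CPM with DMSO and 122, 119 and 123 with 7FTA in WT cells, and 106, 104 and 107 against 118, 114 and 118 CPM in KO cells. On top of TNFα it read 146, 135 and 140.1 against 141, 138 and 145 CPM in WT cells, and 115, 125 and 121 against 128, 131 and 127 CPM in KO cells. The mean effect was 0.08 ± 0.02 (SE; 1.06-fold; adjusted p = 0.00169). Of the single effects only that in KO cells without TNFα passed (0.14 ± 0.04, SE; adjusted p = 0.0345), and it was lost when any 1 of its 6 libraries was left out (adjusted p 0.0516 to 0.166). KEAP1 read 78.3, 80.4 and 79.8 CPM with DMSO and 81.9, 86.7 and 82.2 with 7FTA in WT cells, and 78.3, 77.2 and 80 against 81.6, 79 and 81.6 CPM in KO cells. With TNFα it read 86.1, 86.5 and 91 against 88.2, 91.6 and 95.6 CPM in WT cells and 83.5, 85.4 and 82.4 against 86.7, 89.7 and 94.6 CPM in KO cells. Its mean effect was 0.07 ± 0.02 (SE; adjusted p = 0.014), and that of MAFG was 0.14 ± 0.03 (SE; adjusted p = 0.000245). mRNA counts do not measure the NRF2 protein.

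Set beside the promoter search, the calls were spread over members with and without a match. All 12 members with a TGACNNNGC match had a raised mean effect of 7FTA, as had 12 of the 16 with windows and no match and 5 of the 6 with no window.

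**Figure D3:**
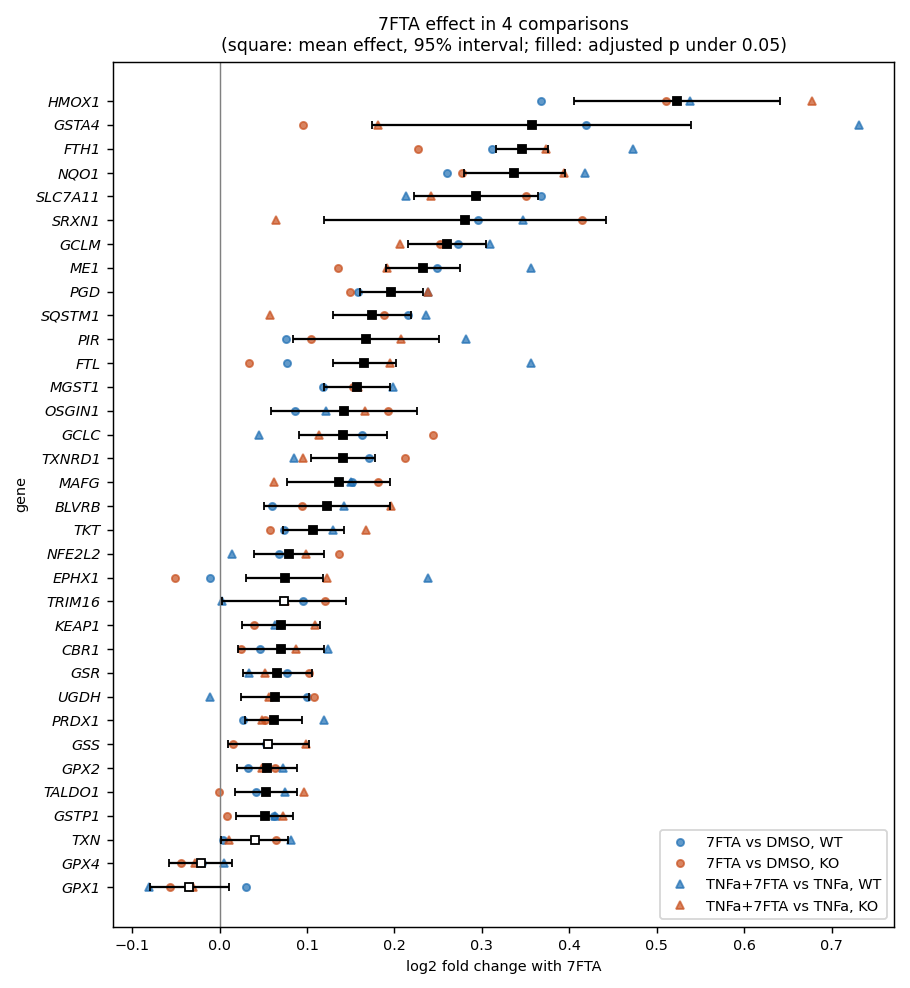
Log2 fold change with 7FTA (horizontal axis) of the 34 genes (rows, by mean effect) in WT (blue) and KO cells (orange), without TNFα (circles) and with it (triangles); squares are the mean effect with its 95% interval, filled where the adjusted p is under 0.05. HMOX1 is at the top with 0.52, and 29 of the 34 squares are filled.

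Without TNFα, no member passed the test of a 7FTA effect that differs between KO and WT cells. In the presence of TNFα this difference was not tested. The difference between KO and WT cells in the effect of 7FTA without TNFα passed for 0 of the 34 members and for 0% of all tested genes. By edgeR 1 member had an unadjusted p under 0.05, and DESeq2 also called 0 members. That member was FTH1, with a difference of -0.08 (95% interval -0.17 to -0.00, unadjusted p = 0.0362). The interval was -0.23 to 0.01 for ME1 and -0.82 to 0.17 for GSTA4, with median levels of 161.5 and 4.49 CPM. Differences within these intervals could have gone undetected, and the interval was wider for GSTA4, the gene of low level.

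Whether TNFα changed the effect of 7FTA was tested as the mean over both genotypes, and 3 members passed, all with a larger effect in the presence of TNFα (8.82% of the members against 1.73% of all tested genes). The difference was 0.22 ± 0.03 for FTL, 0.15 ± 0.03 for FTH1 and 0.21 ± 0.04 for EPHX1 (SE; adjusted p 6.94e-05, 0.000441 and 0.00157). EPHX1 encodes microsomal epoxide hydrolase. In WT cells it read 113, 117 and 116 CPM with DMSO, 114, 117 and 112 with 7FTA, 92, 91.2 and 102 with TNFα, and 109, 114 and 113 with both. In KO cells the libraries read 116, 124 and 122, then 115, 116 and 118, then 105, 107 and 101, then 107, 114 and 119.6 CPM in the same order. EPHX1 was thus lower with TNFα alone in both genotypes. On top of TNFα the step with 7FTA passed in WT cells (0.24, adjusted p = 0.000148) and not in KO cells (0.12, adjusted p = 0.0605), where the libraries with both agents lay between 107 and 119.6 CPM.

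The ratio of the ferritin genes shifted as well. Per kilobase of exon, FTH1 stood at 0.442 ± 0.0074 of FTL in WT cells with DMSO, 0.519 ± 0.009 with 7FTA, 0.475 ± 0.0064 with TNFα and 0.515 ± 0.013 with both (SD, n = 3). In KO cells the ratio was 0.617 ± 0.0099, 0.706 ± 0.011, 0.671 ± 0.01 and 0.76 ± 0.026 in the same order (SD, n = 3). The lowest KO library, at 0.608, lay above the highest WT library, at 0.53. The size of the ratio depends on the exon lengths used, which are the same for every library. Together the pair made up 0.531% of the counts in WT cells with DMSO and 0.665% with both agents.

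With TNFα more members rose than fell, among them SLC7A11, GCLC and GCLM of glutathione synthesis, TXNRD1 and NFE2L2, while HMOX1 was the member that fell most. In WT cells 17 members rose and 5 fell (64.7% called, against 38.4% of all tested genes, 19.5% higher and 18.9% lower). In KO cells 15 rose and 4 fell (55.9% against 30.9%, 16.1% higher and 14.8% lower). The median log2 fold change of the members was 0.10 in WT and 0.09 in KO cells, against -0.01 for all tested genes in both. The genotypes share no library here. In both, 15 members rose (44.1%, against 12.7% of all tested genes) and BLVRB, EPHX1, FTL and HMOX1 fell (11.8% against 11.3%), a share of falls near that of all genes. KEAP1, PIR and UGDH passed in WT cells and not in KO cells, and 12 members passed in neither genotype. The WT value of PIR (-0.24, adjusted p = 0.0259) was lost without DMSO replicate 1 or 3 or TNFα replicate 2 (adjusted p 0.191, 0.0591 and 0.143). OSGIN1, 1 of the 15, was lost with DESeq2 in both genotypes and with no filter in WT cells. In WT cells it was also lost without DMSO replicate 2 or 3 or TNFα replicate 1 or 3. In KO cells it was also lost without DMSO replicate 1 or 2 or TNFα replicate 2 or 3. Over all these runs of OSGIN1 the adjusted p was 0.0527 to 0.242.

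SQSTM1 (chromosome 5, 179806398 to 179838078, plus strand) had the largest rise. Its WT libraries read 415, 426 and 424 CPM with DMSO and 942, 933 and 984 CPM with TNFα, and its KO libraries 495, 527 and 516 against 1151, 1270.0 and 1188 CPM. The groups lay far apart, with log2 fold changes of 1.18 ± 0.04 in WT and 1.23 ± 0.04 in KO cells (SE; 2.26-fold and 2.35-fold; adjusted p 8.23e-21 and 2.57e-21). MRNIP on the opposite strand shares 20.7% of its exon bases and had 11.1 CPM on average. The limit given for FTH1 and BEST1 holds here too. TRIM16, a ubiquitin ligase that associates with p62 and NRF2, went from 21.1, 20.1 and 21.1 to 42.5, 39.8 and 36.2 CPM in WT cells and from 16.3, 15.4 and 17.5 to 34.3, 34.7 and 36.5 CPM in KO cells. Its fold changes were 0.93 ± 0.07 and 1.10 ± 0.07 (SE; adjusted p 1.67e-16 and 1.81e-18). TRIM16 has near-identical copies nearby, so its counts are uncertain where reads could be split between them.

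Of the 11 glutathione genes 6 rose in each genotype, and they were the same 6, where 12.7% of all tested genes rose in both. SLC7A11, whose library values are given above, rose by 0.93 ± 0.07 in WT and 0.73 ± 0.07 in KO cells (SE; adjusted p 8.09e-10 and 2.67e-08). GCLC rose by 0.90 ± 0.05 and 0.73 ± 0.05 (SE; adjusted p 3.94e-18 and 1.55e-15), and its lowest library with TNFα alone, at 175 CPM, lay above the highest DMSO library of either genotype, at 113 CPM. GCLM rose by 0.47 ± 0.04 and 0.43 ± 0.04 (SE; adjusted p 3.79e-13 and 5.8e-12). GPX2 (chromosome 14, 64939152 to 64942905, minus strand) went from 568, 588 and 592 to 816, 786 and 835 CPM in WT cells and from 539, 528 and 541 to 831, 871 and 826 CPM in KO cells. The groups did not overlap in either genotype, and the fold changes were 0.48 ± 0.03 and 0.65 ± 0.03 (SE; adjusted p 2.51e-17 and 2.75e-22). GSR rose by 0.21 and 0.10 and MGST1 by 0.11 and 0.10. The KO value of GSR was lost with DESeq2, with no filter and without DMSO replicate 1 or 3 or TNFα replicate 1 or 2 (adjusted p 0.0532 to 0.147). MGST1 was lost without DMSO replicate 3 or TNFα replicate 1 or 2 in WT cells and without DMSO replicate 2 or 3 or TNFα replicate 2 in KO cells (adjusted p 0.062 to 0.109). GSS, GPX1, GPX4, GSTP1 and GSTA4 did not pass in either genotype, with values from -0.21 to 0.06.

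TXNRD1 rose from 524 ± 6.22 to 704 ± 14.4 CPM in WT cells and from 598 ± 1 to 738 ± 40.1 CPM in KO cells (SD, n = 3), which was 0.42 ± 0.03 and 0.30 ± 0.03 (SE; adjusted p 1.61e-14 and 5.14e-10). TXN rose by 0.21 and 0.17, while PRDX1 and SRXN1 did not pass. Of the regulators, NFE2L2 rose by 0.28 ± 0.04 in WT and 0.18 ± 0.04 in KO cells (SE; adjusted p 3.77e-08 and 0.000119). MAFG rose by 0.21 and 0.34. KEAP1 rose in WT cells by 0.14 ± 0.04 (SE; adjusted p = 0.00523), which was lost without TNFα replicate 3 (adjusted p = 0.0535). In KO cells KEAP1 had 0.09 (adjusted p = 0.0936). Of the NADPH genes ME1 rose by 0.25 and 0.28 and PGD by 0.09 and 0.16. The WT value of PGD was lost with no filter and without DMSO replicate 1 or 2 or TNFα replicate 1 or 3 (adjusted p 0.06 to 0.161).

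HMOX1 fell with TNFα, by 0.99 ± 0.11 in WT cells and 0.48 ± 0.13 in KO cells on the log2 scale (SE; 1.99-fold and 1.40-fold; adjusted p 2.03e-10 and 0.00207). The library values above did not overlap in either genotype. BLVRB fell from 30.3, 27.8 and 24.9 to 21.7, 18.8 and 20.3 CPM in WT cells, and from 33.3, 36 and 34.3 to 29.8, 30.9 and 30.6 CPM in KO cells. The latter step, 0.18 ± 0.07 down (SE; adjusted p = 0.0268), was lost without DMSO replicate 2 or 3 or TNFα replicate 1 or 3 (adjusted p 0.126, 0.0522, 0.0858 and 0.056). FTL fell by 0.09 in WT and 0.15 in KO cells, and the WT value (adjusted p = 0.0446) was lost with DESeq2 (adjusted p = 0.0648) and without DMSO replicate 2 or 3 or TNFα replicate 1 or 2 (adjusted p 0.101 to 0.136). FTH1 did not pass, with 0.02 and -0.03. NQO1 did not pass either, with -0.04 and -0.09.

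**Figure D4:**
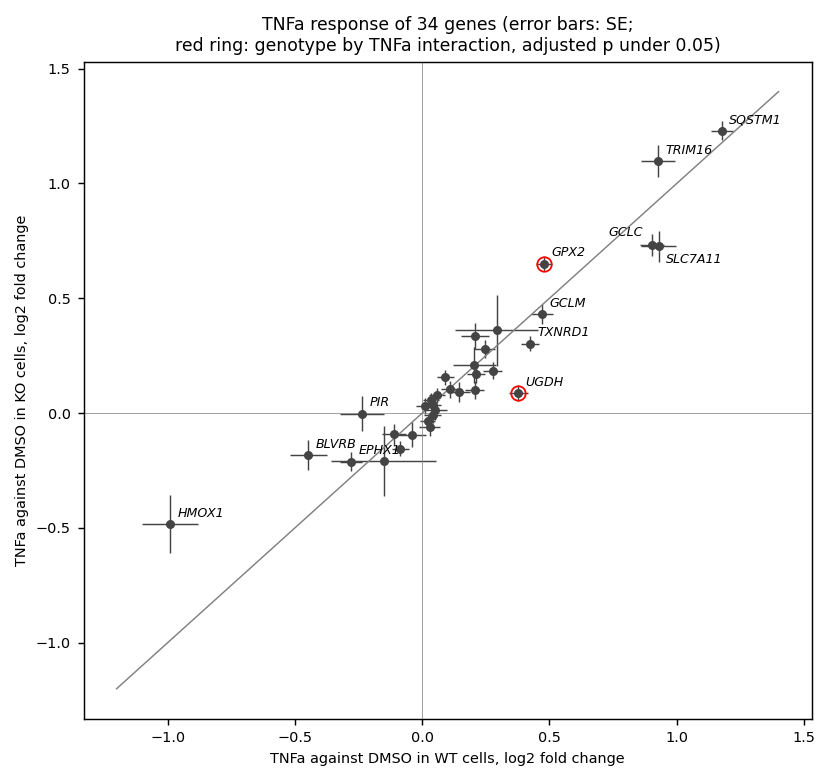
Log2 fold change with TNFα in WT cells (horizontal axis) and in KO cells (vertical axis) for the 34 genes, with SE bars; the line marks equal values and a red ring an adjusted p under 0.05 for the difference. SQSTM1 is at the top right at 1.18 and 1.23, HMOX1 at the bottom left at -0.99 and -0.48, and UGDH and GPX2 carry the rings.

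The TNFα response differed between genotypes for 2 members (5.88%, against 3.55% of all tested genes). UGDH, which makes the UDP-glucuronate used for glucuronidation, had a difference, KO minus WT, of -0.29 ± 0.05 (SE; adjusted p = 0.000168). It went from 104, 102 and 111 to 140.0, 138 and 134 CPM in WT cells and from 174, 179 and 175 to 178, 197 and 185 CPM in KO cells. TNFα thus raised UGDH by 0.38 in WT cells, while the KO groups overlapped (0.09, adjusted p = 0.0616). GPX2 had a difference of 0.17 ± 0.05 (SE; adjusted p = 0.0203), with the larger rise in KO cells. It was lost without KO DMSO replicate 2, KO TNFα replicate 2, WT DMSO replicate 3 or WT TNFα replicate 2 (adjusted p 0.0715, 0.0909, 0.0581 and 0.0667). The count of members called was 1 without KO DMSO replicate 2 or WT TNFα replicate 2, and 4 without KO TNFα replicate 2. For HMOX1, which fell less in KO cells, the difference was 0.51 (95% interval 0.15 to 0.87) and did not pass (adjusted p = 0.0871).

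KO cells differed from WT cells in most members, in both directions, as they did in many other genes. The summed colon epithelium markers were lower in KO libraries as well, by the ranges given above, and their part in these differences was not tested. With DMSO 15 members were higher and 9 lower (70.6% called, against 48.1% of all tested genes, 24% higher and 24.1% lower). With 7FTA 16 were higher and 8 lower (70.6% against 49.5%, 24.6% higher and 24.9% lower). With TNFα 15 were higher and 8 lower (67.6% against 50.6%, 25.5% higher and 25.1% lower). With both agents 15 were higher and 8 lower (67.6% against 51.9%, 25.8% higher and 26.1% lower). The share of members that was lower was thus near that of all genes under each treatment. The 4 comparisons use different libraries. In all 4, 13 members were higher (38.2%, against 15.9% of all tested genes) and 6 were lower (17.6% against 17%). The 13 were BLVRB, CBR1, FTH1, GSS, GSTA4, ME1, OSGIN1, PGD, PIR, SLC7A11, SQSTM1, TALDO1 and UGDH, and the 6 were FTL, GPX1, GSR, HMOX1, MGST1 and PRDX1. CBR1 was lost with 7FTA without KO replicate 2 or WT replicate 3 (adjusted p 0.0812 and 0.0564) and with both agents without WT replicate 1 (adjusted p = 0.063). MGST1 was lost with 7FTA with no filter and without KO replicate 3 or WT replicate 2 (adjusted p 0.154, 0.152 and 0.0723).

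By role, 3 of the 4 NADPH genes (PGD, ME1 and TALDO1) were higher in KO cells under each treatment and TKT passed under none. ME1 was higher by 0.37, 0.26, 0.40 and 0.24 with DMSO, 7FTA, TNFα and both. The glutathione genes split, with SLC7A11, GSTA4 and GSS higher and GSR, GPX1 and MGST1 lower under each treatment. Haem and iron split too, with FTH1 and BLVRB higher and FTL and HMOX1 lower. NFE2L2 was lower in KO cells with DMSO (-0.13 ± 0.04), TNFα (-0.22 ± 0.04) and both (-0.14 ± 0.04, SE; adjusted p 0.00419, 3.18e-06 and 0.00202). With 7FTA alone it had -0.06 (adjusted p = 0.182). KEAP1 and MAFG passed in none of the 4, and NQO1 passed with both agents only (-0.14 ± 0.05, SE; adjusted p = 0.0352). That value was lost without WT replicate 2 or KO replicate 1 or 3 of that treatment (adjusted p 0.207, 0.143 and 0.123) and in the fit of the compared groups only (adjusted p = 0.0853).

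GSTA4 (chromosome 6, 52977948 to 52995378, minus strand) had the largest difference as the mean over the 4 treatments, 0.99, with 2.37 ± 0.294 CPM in WT and 5.56 ± 0.318 CPM in KO cells with DMSO (SD, n = 3). Its log2 fold changes were 1.24 ± 0.17 with DMSO, 0.91 ± 0.16 with 7FTA, 1.18 ± 0.19 with TNFα and 0.63 ± 0.16 with both (SE; adjusted p 2.25e-08, 3.41e-06, 6.73e-07 and 0.00105). The highest WT library, at 4.46 CPM, lay just under the lowest KO library, at 4.52 CPM. UGDH had the second largest increase in that mean, 0.61, and stood at 106 ± 4.5 CPM in WT and 176 ± 2.73 CPM in KO cells with DMSO (SD, n = 3). Its fold changes were 0.73, 0.74, 0.44 and 0.51 in the same order of treatments, each ± 0.04 (SE), with BLVRB and PIR above it with TNFα and with both agents, and the smallest KO value, 174 CPM, exceeded the highest WT value, 140.0 CPM.

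SLC7A11 was higher in KO cells by 0.55 ± 0.07 with DMSO, 0.53 ± 0.07 with 7FTA, 0.35 ± 0.07 with TNFα and 0.37 ± 0.06 with both (SE; adjusted p 1.37e-06, 1.31e-06, 0.000193 and 6.22e-05). PIR, a nuclear iron-binding protein, read 13.9, 11.2 and 12.7 CPM in WT and 17.9, 16.5 and 17.4 CPM in KO cells with DMSO, and 11.2, 10 and 11.2 against 17.5, 16.8 and 17.4 CPM with TNFα. With both agents PIR read 11.9, 13.3 and 14 against 19, 20.1 and 20.7 CPM. No WT library of PIR reached the KO range, and the fold changes were 0.44, 0.47, 0.68 and 0.60. BLVRB, given above for DMSO and TNFα, read 21.4, 24.1 and 21.3 against 34.6, 34.8 and 35.1 CPM with both, and its fold changes were 0.32, 0.36, 0.59 and 0.64. OSGIN1, whose product is induced by oxidative stress, read 16, 15.1 and 15.8 CPM in WT and 21.8, 22.2 and 22.3 CPM in KO cells with 7FTA, a fold change of 0.50 ± 0.08 (SE; adjusted p = 4.44e-07).

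HMOX1 and GSR were the most lowered members in the mean over the 4 treatments (-0.61 and -0.48), although with both agents FTL (-0.43) was below HMOX1. GSR read 176, 172 and 176 CPM in WT and 125, 134 and 127 CPM in KO cells with DMSO, and 207, 199 and 198 against 138, 141 and 136 CPM with TNFα. With both agents it read 204, 213 and 201 against 140.1, 151 and 139.5 CPM. The fold changes of GSR were -0.43, -0.41, -0.54 and -0.52, each ± 0.04 (SE). HMOX1 was lower by 0.94 ± 0.10 with DMSO and by 0.79 ± 0.09 with 7FTA (log2, SE; adjusted p 1.7e-10 and 9.4e-10). With TNFα its value was -0.43 ± 0.13 and with both -0.29 ± 0.11 (SE; adjusted p 0.00536 and 0.0244). The former was lost without WT TNFα replicate 1 (adjusted p = 0.0632) and the latter without KO replicate 1 or 2 or WT replicate 1 of that treatment (adjusted p 0.11, 0.061 and 0.0826). TRIM16 was lower with DMSO, 7FTA and TNFα (-0.34, -0.31 and -0.17). The call with TNFα (adjusted p = 0.0264) was lost with no filter on low counts (adjusted p = 0.0503) and without replicate 1 or 2 of either genotype (adjusted p 0.0605 to 0.189).

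For some members, genes close by on the chromosome had a similar difference. The 50 tested genes nearest to GSR had a median difference between KO and WT cells of -0.48 as the mean over the 4 treatments, and GSR itself had -0.48. For FTL the values were -0.27 for its 50 neighbours, between 48180770 and 49690575 on chromosome 19, and -0.29 for the gene. GCLC, at 0.20 beside 0.20, TALDO1, at 0.19 beside 0.17, and TXNRD1, at 0.14 beside 0.12, were likewise close to their neighbours, and MGST1 had -0.13 beside -0.08. HMOX1 was not, at -0.61 beside 0.07, nor were GSTA4 at 0.99 beside 0.14, UGDH at 0.61 beside 0.10, PIR at 0.55 beside 0.02 and SLC7A11 at 0.45 beside 0.03. BLVRB, on chromosome 19 as well, was higher in KO cells by 0.48 while its 50 neighbours had -0.22. The part of the neighbourhood in the differences was not tested.

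**Figure D5:**
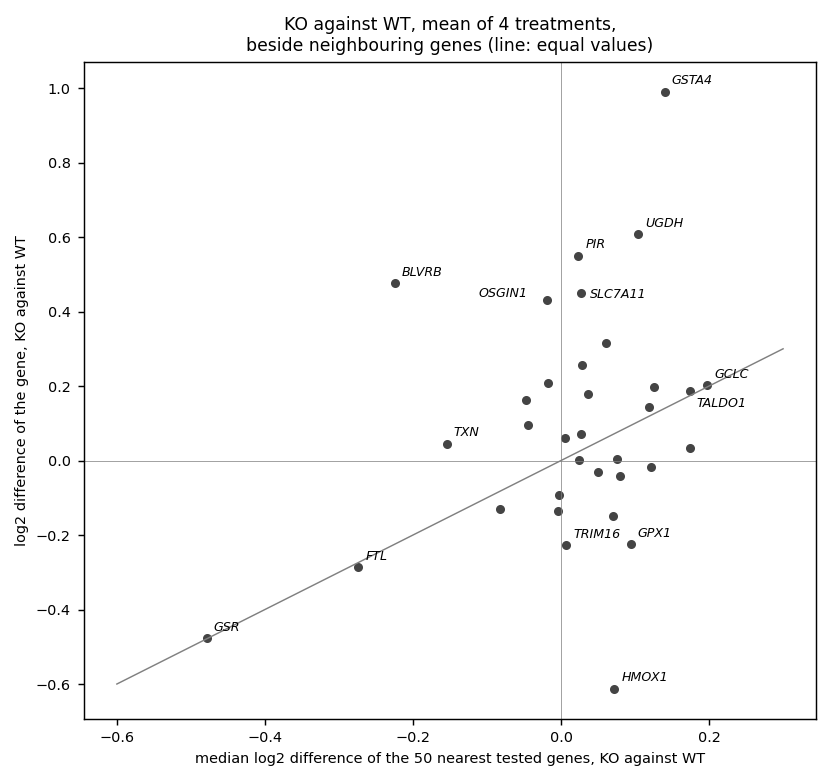
Log2 difference between KO and WT cells, as the mean over 4 treatments, of each of the 34 genes (vertical axis) against the median of its 50 nearest tested genes (horizontal axis); the line marks equal values. GSR and FTL lie on the line at the lower left, while GSTA4, UGDH, BLVRB and HMOX1 lie far from it.

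A further 89 genes of the same pathways were looked up in the table, and 79 of them were tested. For the mean effect of 7FTA 19 rose and 4 fell, with a median of 0.02 (24.1% and 5.06%, against 8.86% and 7.58% of all tested genes). The rise was most frequent among other enzymes for quinones, carbonyls and xenobiotics, where 7 of 10 rose and 0 fell, with a median of 0.43. ALDH3A1, an aldehyde dehydrogenase that is also a target of the aryl hydrocarbon receptor, rose by 1.09 ± 0.03, AKR1B10 by 0.61 ± 0.03, AKR1C2 by 0.69 ± 0.06 and AKR1C1 by 0.50 ± 0.05 (SE). AKR1C1 and AKR1C2 are near-identical copies whose reads could be split between them. In the same list 5 of 10 had a larger effect of 7FTA in the presence of TNFα. Of all tested genes 0.64% had a difference above 0 that passed. Among the 5 were AKR1C2 by 0.70 ± 0.12, AKR1C1 by 0.65 ± 0.09, ALDH3A1 by 0.59 ± 0.07 and AKR1B10 by 0.42 ± 0.07 (SE). ALDH3A1 stood at 15.9 ± 0.602 CPM in WT cells with TNFα and at 43.1 ± 2.84 CPM with both (SD, n = 3). In WT cells without TNFα, 7FTA also raised TFRC, the transferrin receptor, by 0.24 ± 0.04 and UGT1A6 by 0.41 ± 0.10 (SE). In that comparison 4 of the 79 rose and 0 fell (5.06% and 0%, against 1.44% and 0.605% of all tested genes).

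Of the 79 genes, 17 rose and 25 fell with TNFα in WT cells (21.5% and 31.6%, against 19.5% and 18.9% of all tested genes). In KO cells 12 rose and 16 fell (15.2% and 20.3%, against 16.1% and 14.8%), so the shares that rose were near those of all genes. SOD2, the mitochondrial superoxide dismutase, rose by 1.22 ± 0.05 and 1.03 ± 0.05 (SE). In WT cells SLC40A1, the iron exporter ferroportin, fell from 56.7 ± 1.71 to 24.7 ± 2.71 CPM (SD, n = 3). NFE2L3, a relative of NRF2, rose by 0.97 ± 0.03 in WT and 1.28 ± 0.03 in KO cells (SE). The small MAF gene MAFF rose by 1.04 ± 0.07 and 1.07 ± 0.07, and BACH1, the repressor that competes with NRF2 for its sites, by 0.67 ± 0.06 and 0.91 ± 0.06 (SE). The response differed between genotypes for 6 of the 79, with 5 differences (KO minus WT) above 0 and 1 below (6.33% and 1.27%, against 2.05% and 1.5% of all tested genes). They were 0.59 ± 0.09 for SLC40A1, 0.60 ± 0.12 for SESN1, 0.48 ± 0.08 for SLC11A2 and 0.31 ± 0.05 for NFE2L3 (SE). IDH1, named after its value was seen, had 0.24 ± 0.05 (SE). KO cells had 37 of the 79 higher and 22 lower with DMSO (46.8% and 27.8%, against 24% and 24.1% of all tested genes). AKR1B10 stood at 76.7 ± 2.39 CPM in WT and 319 ± 6.75 CPM in KO cells (SD, n = 3), 4.16-fold higher, and 9 of the 10 tested enzymes of its list were higher.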

How the data were processed

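The deposited file held raw gene counts for 24 libraries, 1 column each, per the labels. GRCh38 is the build in the submitters' processing notes, which also list DESeq2 1.20.0, featureCounts 1.6.4 and STAR 2.6.1d, with no roles; the strand setting and the annotation release were not given in the sources used here, so reads of opposite-strand genes that overlap cannot be told apart. Groups and replicate numbers came from the sample titles. With R 4.3.3 and edgeR 4.0.16, genes were filtered (filterByExpr, 8 groups), scaled by TMM (factors 0.944 to 1.05), and fitted with 1 mean per group over all 24 libraries (robust quasi-likelihood). Contrasts were tested on both sides with the F test and Benjamini-Hochberg adjustment over 14059 genes. Each SE was derived from the fold change and its F (size of the log2 value over root F). Each 95% interval reaches the SE times a t value, on the residual degrees of freedom, to either side. The F test uses more degrees of freedom, so an interval can be wider than its p implies. The steps were tested on simulated data. Alternatives were DESeq2's size factors, no filter, DESeq2 1.42.0, a replicate block, only the compared groups, and leaving out each library.

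The 34 members and all lists were chosen with earlier results of these data known. Values of every library are printed for NFE2L2, KEAP1 and up to 5 called members with the largest change per comparison, and up to 4 called genes of the other pathway lists are named per comparison. Positions are from GENCODE 29 on GRCh38, in which GPX1 is typed as a polymorphic pseudogene, and promoters from RefSeq on GRCh38.p14. 1 gene of the other pathway lists is not reported here.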

Additional observations from a re-analysis of the deposited data

Results flagged for a closer look

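For 5 members an effect differed between groups by a test of the difference itself (edgeR's quasi-likelihood test, adjusted p under 0.05). The TNFα effect differed between genotypes for 2 members (5.88%, against 3.55% of all tested genes). The 7FTA effect differed with TNFα for 3 (8.82% against 1.73%). The TNFα effect of UGDH was lower in KO than in WT cells by a log2 value of -0.29, and that of GPX2 higher by 0.17. The 7FTA effect, as the mean over both genotypes, was larger in the presence of TNFα by 0.21 for EPHX1, 0.15 for FTH1 and 0.22 for FTL. The call of GPX2 was lost when any 1 of 4 libraries was left out, as given above. The other 4 calls were kept under every alternative run. Groups of 3 libraries are too small for a test for outlying libraries.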

How the results depend on the processing

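Of the 213 values of members past the threshold, 176 kept it under every alternative run, 37 lost it under at least 1, and 0 changed sign. The counts of members called stayed within 1.5 times the reported one under DESeq2's size factors, no filter, DESeq2, the replicate block and the fit of the compared groups only. With each library left out in turn they did so too, except for the difference between genotypes in the TNFα effect, which ran from 1 to 4 around 2. With each library left out the mean effect of 7FTA was called for 27 to 30 members.

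The replicate numbers gave little sign of pairing. Correlations of same-numbered libraries between groups, over all tested genes and with group means removed, ran from -0.0649 to 0.119. Of 28 pairs of groups, 0 had all above 0.1. A small shift shared by same-numbered libraries could be missed in this way. With the replicate block, 11 and 13 members were called for 7FTA in WT and KO cells, 14 and 14 on top of TNFα, 29 for the mean effect, 23 and 21 for TNFα, 25, 25, 24 and 24 for KO against WT with DMSO, 7FTA, TNFα and both, and 0, 2 and 3 for the differences between effects. Members of low level, such as GSTA4 and SRXN1, had wide intervals at this depth.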
